A study of Mus musculus with 4 samples.

Results

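Chemokines and their receptors were followed in MLL-AF9 transduced cells of mouse bone marrow, with and without the fatty acid elongase Elovl6. Members were all rows of the deposited gene table whose symbols begin with the stems Ccl, Cxcl, Cx3cl, Xcl, Ccr, Cxcr, Cx3cr, Xcr or Ackr and a digit, and which had at least 10 uniquely placed gene reads over the 4 libraries. This gave 25 members, 12 ligands and 13 receptors, out of 63 rows with such names and 51826 rows in all. The read minimum used the summed reads and not the difference between genotypes, though the members were chosen with earlier results of these data known.

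Chemokines are small secreted proteins that attract cells along a gradient. They bind receptors that cross the membrane several times and signal through inhibitory G proteins and arrestins, while atypical receptors bind chemokines without that signal and clear them. In bone marrow, Cxcl12 from stromal cells holds Cxcr4-bearing progenitors in place, and Ccr2 lets monocytes leave for the blood. Inflammatory ligands such as Ccl3 and Ccl4 are made by activated myeloid cells.

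The tested cells were Lin-c-kit+ bone marrow cells, a fraction enriched for progenitors, that carried a transduced MLL-AF9 fusion oncogene and were labelled with 2 weeks. RNA was sequenced from 2 Elovl6 KO and 2 WT samples, and both groups carried MLL-AF9. The labels do not say how the gene was knocked out or whether the cells were 1 clone. Nor do they tie a replicate to its own animal or culture, and p-values therefore reflect the spread among these libraries alone, part or all of which could be technical.

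The KO libraries held 8986502 and 9699502 exon counts and the WT libraries 9883596 and 11941588. Levels are given in CPM (counts per 1000000 counts of the library, after TMM scaling between libraries). Exon counts of Elovl6 were 17 and 34 in KO and 1290 and 1673 in WT, lower in both KO libraries. Its intron reads, scaled in the same way among intron reads (intron CPM), were at 173.5 and 204.9 in KO and 365.1 and 390.3 in WT. The progenitor genes Kit and Myb were present in all libraries, with Kit at 138.9 and 111.4 CPM in KO and 139.9 and 130.5 CPM in WT. The summed level of 11 monocyte and macrophage markers was 1601 and 2089 CPM in KO and 1028 and 1043 CPM in WT, and all 10 that were tested had both KO libraries above both WT libraries, as did 26.8% of all genes tested. The summed level of 8 progenitor markers was 6548 and 4716 CPM in KO and 7317 and 7607 CPM in WT, with a median log2 fold change of -0.26. Of these 8, 6 had both KO libraries below both WT libraries, as did 27% of all genes tested. Kit and Flt3 overlapped between groups, and none of the 8 was called in edgeR (adjusted p under 0.05). In bulk RNA, a change in the number of cells of a type and a change in RNA per cell cannot be told apart.

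Expression of the family was carried by few genes. The 25 members together took 927.8 and 1250 CPM in KO and 732.9 and 801 CPM in WT, and 5 of them had fewer than 10 exon counts over the 4 libraries. Ranked by level per length, Cxcr4, Ccl9 and Ccr2 stood above the rest. Cxcr4, the receptor for Cxcl12, averaged 133.2 ± 12.8 CPM per kb of exon in KO and 105.0 ± 11.8 in WT (SD, n = 2 each). Ccl9, a CC chemokine of rodents that acts through Ccr1, averaged 83.0 ± 17.8 CPM per kb in KO and 52.3 ± 3.17 in WT. Ccr2, the receptor of monocyte chemoattractants, averaged 74.8 ± 18.3 CPM per kb in KO and 56.0 ± 0.907 in WT. In KO the ranges of Ccl9 and Ccr2 overlapped, at 70.5 and 95.6 against 61.9 and 87.7 CPM per kb. In WT they did not overlap, and Ccr2, at 55.4 and 56.6, lay just above Ccl9, at 50.0 and 54.5. The next member, Ccl3, averaged 30.0 ± 11.8 CPM per kb in KO and 5.80 ± 1.24 in WT, and it held rank 4 in either genotype. The other 21 members had means under 10 CPM per kb in both groups.

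**Figure D1:**
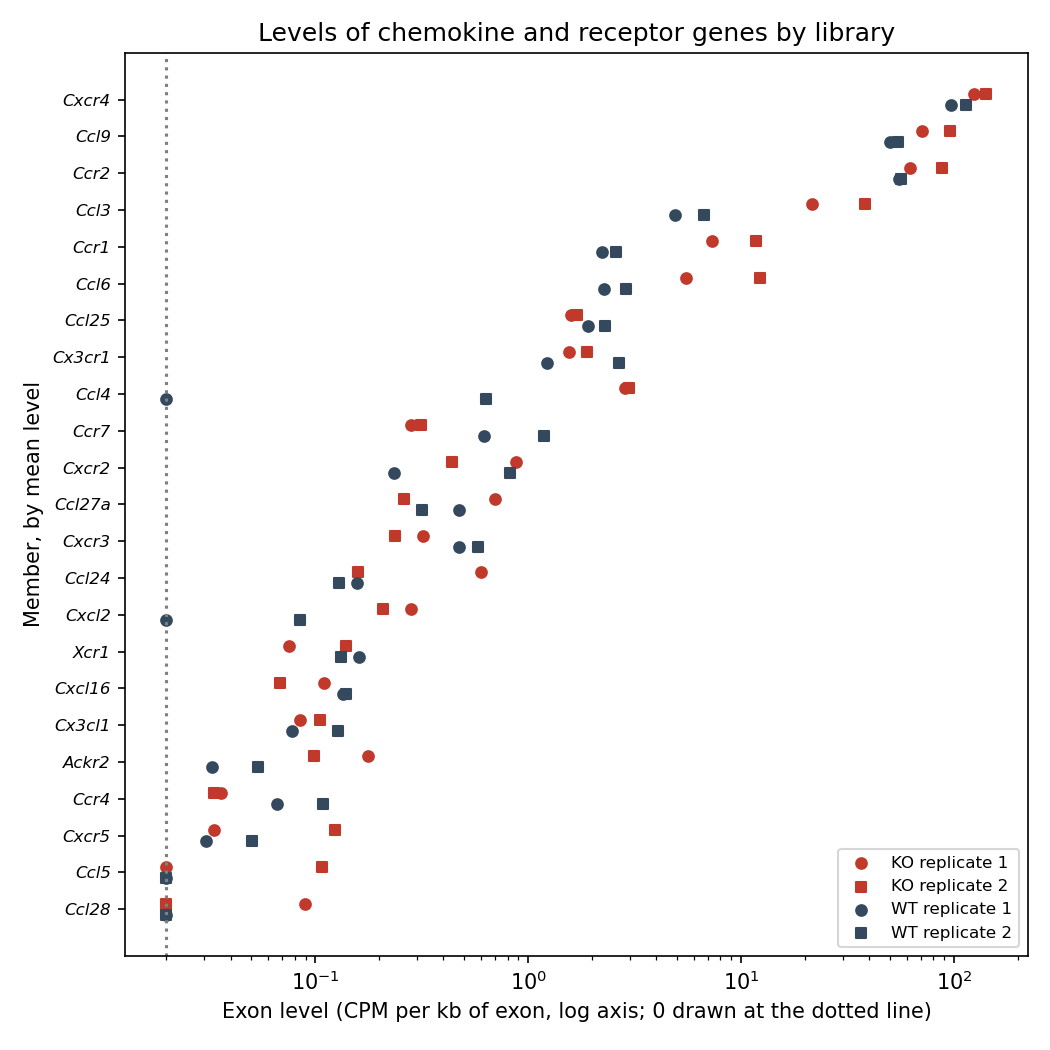
Exon level of members in each library, in CPM per kb of exon on a log axis, with KO in red and WT in dark blue and 0 drawn at the dotted line. Cxcr4, Ccl9 and Ccr2 lie highest, and the KO libraries of Ccl3, Ccr1, Ccl6 and Ccl4 lie to the right of both WT libraries. Ccr9, with 0 exon counts in all libraries, is not drawn.

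Setting KO against WT shows which chemokine and receptor genes differed with the loss of Elovl6. The ligand Ccl3 and its receptor Ccr1 rose, by 5.13-fold and 3.95-fold in exon counts, and both also rose in intron reads. Intron reads of Ccl4 and Ccr2 rose as well, though neither call held in every fit with 1 library left out. No member passed as lower, though with no filter on low counts Ccr7 did. Of the 25 members, 13 had enough exon counts to be tested with edgeR (quasi-likelihood fit, Benjamini-Hochberg adjustment, threshold 0.05). Of these 2 were called, both higher, while over all 11738 genes tested 2.8% were called, 1.82% higher and 0.98% lower. Of the 10 members tested in introns 4 were called, all higher, while over 12359 genes 4.81% were called, 2.59% higher and 2.23% lower. In exons 10 of the 13 log2 fold changes were above 0, and 8 members had an unadjusted p under 0.05, as did 20.8% of all genes tested. The median log2 fold change was 0.42 over the 13 members and -0.0037 over all genes tested in exons, and 0.46 over the 10 members and 0.0063 over all genes tested in introns. A member can pass the filter through the genotype in which it is high. Ccl4 in exons and introns and Ccr1 in introns had few reads in WT, and Ccr7 in exons had few in KO. These counts and medians therefore describe the tested members and not the family.

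Ccl3 (ENSMUSG00000000982) encodes macrophage inflammatory protein 1 alpha, a ligand of Ccr1. It lies on chromosome 11, minus strand, from 83647844 to 83649355 (mm10), and is annotated as protein-coding. Its exon counts were 149 and 285 in KO and 37 and 61 in WT, which is 16.6 and 29.3 CPM in KO and 3.77 and 5.11 CPM in WT. Both KO libraries were above both WT libraries, and KO replicate 2 was the higher of the KO pair. The log2 fold change was 2.36 (SE 0.31, edgeR adjusted p = 0.0199). Reads in its introns were 83 and 186 in KO and 33 and 40 in WT, with a log2 fold change of 2.04 (SE 0.34, edgeR adjusted p = 0.0148). Reads across exon junctions numbered 24 and 52 in KO and 7 and 16 in WT, so spliced RNA was counted in each library.

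Ccr1 (ENSMUSG00000025804) encodes a receptor for Ccl3, Ccl5, Ccl6 and Ccl9 in the mouse. It lies on chromosome 9, minus strand, from 123962124 to 123968692. Its exon counts were 186 and 322 in KO and 62 and 87 in WT, or 20.7 and 33.2 CPM in KO and 6.31 and 7.29 CPM in WT. The groups did not overlap, and the log2 fold change was 1.98 (SE 0.25, edgeR adjusted p = 0.0163). Its introns held 64 and 79 reads in KO and 7 and 9 in WT, again without overlap. The intron log2 fold change was 3.31 (SE 0.28, edgeR adjusted p = 0.000759). Without WT replicate 1 the exon calls of Ccl3 and Ccr1 were lost (adjusted p = 0.278 and 0.271), and likewise without WT replicate 2 (0.168 for both), while their intron calls held with any of the 4 libraries left out (adjusted p at most 0.0345 for Ccl3 and 0.00198 for Ccr1).

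The sequences before the starts of Ccl3 and Ccr1 are shown because these members rose in both kinds of read. They are the 250 bases before the RefSeq transcript start (GRCm38.p6, the assembly of mm10), read in the direction of the gene, at chr11:83649379-83649628 and chr9:123968693-123968942, both on the minus strand. Capitals mark the only match found to the motifs searched.
Ccl3: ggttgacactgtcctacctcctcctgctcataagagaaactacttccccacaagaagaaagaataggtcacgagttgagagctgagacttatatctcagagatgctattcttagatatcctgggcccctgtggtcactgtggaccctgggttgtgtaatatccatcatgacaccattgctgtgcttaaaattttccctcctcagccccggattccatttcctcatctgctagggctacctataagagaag
Ccr1: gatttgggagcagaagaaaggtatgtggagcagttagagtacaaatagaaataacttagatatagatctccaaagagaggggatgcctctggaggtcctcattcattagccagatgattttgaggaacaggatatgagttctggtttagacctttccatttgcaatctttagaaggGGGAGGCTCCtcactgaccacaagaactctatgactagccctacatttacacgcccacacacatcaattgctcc
The motifs, searched on both strands, were the TATA box TATAAA, the AP-1 motif TGANTCA, the C/EBP motif TTGCNNAA and the PU.1 motif GAGGAAGT. The NF-kB motif was also searched, as 10 bases that open with GGG and close with CC. No motif lies within another, though matches may overlap. Of 32817 promoter windows of this length, 12.4% held the TATA box, 6.75% AP-1, 45.8% NF-kB, 9.57% C/EBP and 2.44% PU.1. The Ccr1 window held 1 match to the NF-kB letters, GGGAGGCTCC, at -74 to -65 counted from the start. The Ccl3 window held none of the letters searched. These matches describe the letters and not binding.

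Ccl4, Ccl6 and Ccl9 are the other ligands that lie beside Ccl3 and were tested. Ccl4 (ENSMUSG00000018930), macrophage inflammatory protein 1 beta, an inflammatory ligand, had 17 and 19 exon counts in KO and 0 and 5 in WT. The depth-adjusted count ratio was 8.37 (exact 95% counting interval 3.28 to 27.3), and the log2 fold change was 3.01 (SE 0.75, edgeR adjusted p = 0.0869), short of the threshold. Without WT replicate 1 that value was 2.16, and without WT replicate 2, which leaves WT at 0 counts, it was 7.20 and depends on the prior count. Its intron reads were 17 and 16 in KO and 4 and 5 in WT, and rose with a log2 fold change of 2.02 (SE 0.45, edgeR adjusted p = 0.0463). That call did not hold with any 1 of the 4 libraries left out, nor with DESeq2 (adjusted p up to 0.351). The intron count ratio was 4.14, with an exact 95% counting interval of 1.94 to 9.85. Both intervals leave out the spread between replicates.

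Ccl6 (ENSMUSG00000018927), a rodent CC chemokine made by myeloid cells, had 89 and 215 exon counts in KO and 40 and 62 in WT. The KO libraries were at 9.90 and 22.1 CPM, apart from each other, and both lay above both WT libraries. The log2 fold change was 1.78 (SE 0.39, edgeR adjusted p = 0.0629). Only 44.0% of its exon reads were uniquely placed, so reads shared with a near-identical copy are possible and its level is uncertain. Unique exon reads alone numbered 89 and 214 in KO and 40 and 62 in WT. It had 0 intron reads in all 4 libraries, and E230016K23Rik overlaps it on the opposite strand. Ccl9 (ENSMUSG00000019122) had 1930 and 2828 exon counts in KO and 1496 and 1981 in WT, or 214.6 and 291.1 CPM in KO and 152.4 and 166.0 CPM in WT. Its log2 fold change was 0.67 (SE 0.13, edgeR adjusted p = 0.0522) in exons and 0.76 (SE 0.19, edgeR adjusted p = 0.0681) in introns. Both missed the threshold although the groups did not overlap in either. With all 4 libraries kept, both passed in exons with DESeq2, with no filter on low counts and with a replicate block, and neither with RLE scaling. Ccl9 also passed on unique exon reads and Ccl6 on total exon reads, but not the reverse. No filter called 1677 genes and the block 875, against 329 in the main fit. With 1 library left out the exon log2 fold change ran from 0.43 to 0.87 for Ccl9 and from 1.09 to 2.24 for Ccl6.

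**Figure D2:**
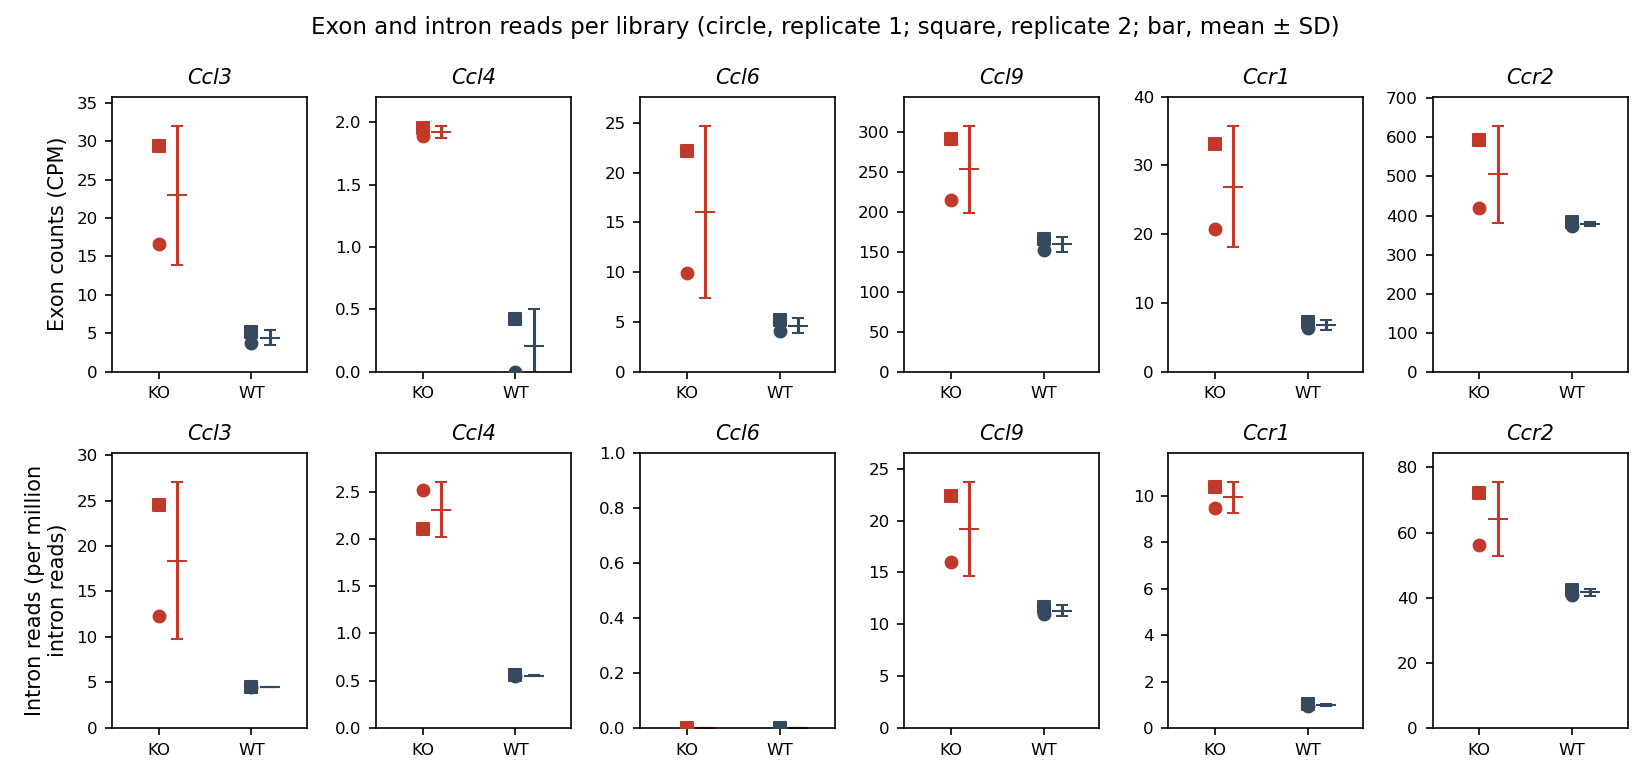
Exon counts (upper row, CPM) and intron reads (lower row, intron CPM) of 6 members in each library, with KO left of WT. Circles are replicate 1, squares replicate 2, and the bars beside them the mean and SD of 2 libraries. For Ccl3 and Ccr1 both KO libraries lie above both WT libraries in exons and introns, and Ccl6 has 0 intron reads throughout.

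Among the other receptors, Ccr2 (ENSMUSG00000049103) had exon levels of 418.1 and 593.1 CPM in KO and 374.2 and 382.8 CPM in WT. The difference missed the threshold at a log2 fold change of 0.42 (SE 0.15, edgeR adjusted p = 0.171). Its intron reads were 379 and 548 in KO and 299 and 378 in WT, and rose with a log2 fold change of 0.62 (SE 0.13, edgeR adjusted p = 0.0322). Leaving out KO replicate 2, WT replicate 1 or WT replicate 2 ended that call (adjusted p up to 0.135). Cxcr4 (ENSMUSG00000045382) was at 224.4 and 257.2 CPM in KO and 174.9 and 205.0 CPM in WT. Its log2 fold change was 0.34 (SE 0.096, edgeR adjusted p = 0.114) in exons and 0.087 (SE 0.13, edgeR adjusted p = 0.767) in introns. Neither passed, and in introns the groups overlapped.

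Ccr7 (ENSMUSG00000037944), which guides cells to lymph nodes, had the lowest log2 fold change of the tested members. It had 5 and 6 exon counts in KO and 12 and 28 in WT, with a log2 fold change of -1.61 (SE 0.52, edgeR adjusted p = 0.147) that did not pass. With no filter on low counts it passed as lower (edgeR adjusted p = 0.0379). Cx3cr1 (ENSMUSG00000052336), the fractalkine receptor of monocytes, overlapped between groups, with 63 and 83 counts in KO and 54 and 143 in WT (log2 fold change -0.18, SE 0.35, edgeR adjusted p = 0.815). Its intron reads numbered 71 and 64 in KO and 82 and 123 in WT, lower in both KO libraries but short of the threshold (-0.41, SE 0.20, edgeR adjusted p = 0.305). The neutrophil receptor Cxcr2 also overlapped, with 24 and 13 counts in KO and 7 and 30 in WT (0.25, SE 0.61, edgeR adjusted p = 0.853). For Cx3cr1 and Cxcr2 no difference was resolved, which does not show that they were unchanged.

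Of the 13 members tested in exons, 7 had both KO libraries above both WT libraries and 2 had both below. Among all genes tested, 26.8% lay above and 27% below in this way. In introns 5 of 10 members lay above and 1 below, where 26.3% and 25.4% of all features did. These counts too describe the tested members, which can pass the filter through the genotype in which they are high. The authors' deposited table, which tests all rows with an EDGE test, gave 5 of the 25 members a corrected p under 0.05, all higher in KO, where 1.1% of its 51826 rows were called higher and 1.71% in either direction. Most of those rows had few or no reads. Among the 17067 rows that reach the same minimum as the members, 3.33% were called higher and 5.19% in either direction. The authors' deposited table lists fold changes of 5.09 for Ccl3, 7.92 for Ccl4, 3.91 for Ccr1, 3.41 for Ccl6 and 1.58 for Ccl9. It rests on the same 4 libraries and adds no independent evidence.

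Whether exon and intron reads changed alike was tested directly. Intron reads come mainly from RNA that is not yet spliced. For 8 members with both tests the exon and the intron change had the same sign. The intron values of Ccl25 (-0.013, SE 0.071) and Cxcr4 (0.087, SE 0.13) were within their SE of 0, so their signs were not resolved. The share of all genes with matching signs was not computed. For Ccr1 the exon change minus the intron change was -1.34 on the log2 scale (SE 0.39, edgeR interaction, adjusted p = 0.0624). The count ratio of Ccr1 was 3.97 in exons (exact 95% counting interval 3.30 to 4.79) and 10.1 in introns (6.01 to 18.2). These intervals cover counting error only and leave out the spread between replicates. For Ccl3 the difference was 0.32 (SE 0.27, edgeR adjusted p = 0.699) and for Ccr2 -0.21 (SE 0.089, edgeR adjusted p = 0.325). Ccr7, with few reads, had -1.37 (SE 0.80, edgeR adjusted p = 0.530). None of the 10 members tested passed and 2 had an unadjusted p under 0.05, as did 11.5% of all genes tested, while 1.23% of 11190 genes passed, 0.849% with a higher and 0.384% with a lower exon change. Without KO replicate 2 the Ccr1 difference passed (-1.65, adjusted p = 0.0413).

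**Figure D3:**
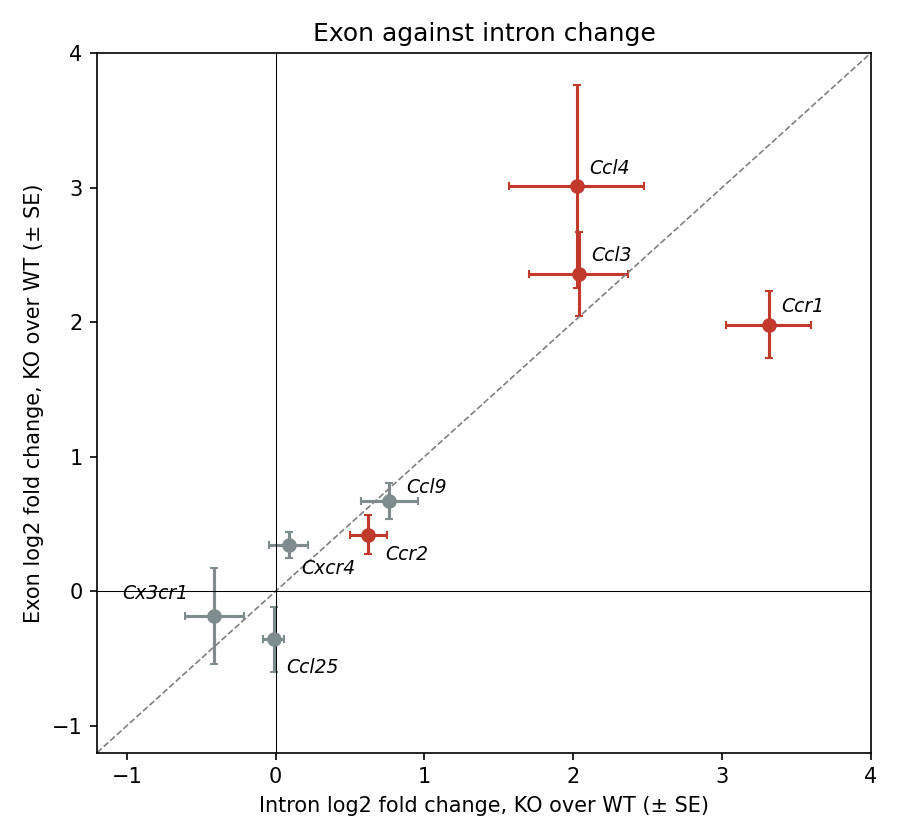
Log2 fold change of KO over WT in exon counts (vertical) and intron reads (horizontal) for the 8 members tested in both, with SE bars and a dashed line of equal change. Red members passed an adjusted p of 0.05 in exons or introns. Ccr1 lies below the line, at 1.98 in exons and 3.31 in introns, and Ccl3 lies near it.

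Intron reads of some members may belong to other genes. Ccl25, a ligand of Ccr9, had 95.1% of its uniquely placed reads in introns, and Elavl1 overlaps it on the opposite strand in GENCODE vM21. Its intron reads were 906 and 955 in KO and 954 and 1172 in WT (log2 fold change -0.013, SE 0.071, edgeR adjusted p = 0.948). Its exon counts were 38 and 44 in KO and 50 and 73 in WT, a log2 fold change of -0.36 (SE 0.24, edgeR adjusted p = 0.442). Cxcr5, the B cell follicle receptor, had 94.6% of its reads in introns and overlaps Bcl9l. The Cx3cr1 gene model spans several other genes, and 49.8% of its reads were in introns. The sources used here do not state whether the counting took strand into account, so reads of these members and of the genes they overlap cannot be told apart. Ccl3, Ccl4, Ccl9, Ccr1 and Ccr2 overlap no annotated gene.

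Ccl3, Ccl4, Ccl6 and Ccl9 lie in one gene cluster and Ccr1 and Ccr2 in another. On chromosome 11, from 83525778 to 83664683, Ccl5, Ccl9, Ccl6, Ccl3 and Ccl4 follow each other within 138.9 kb. Exon log2 fold changes along it were 0.67 (SE 0.13) for Ccl9 and 1.78 (SE 0.39) for Ccl6. Those of Ccl3 and Ccl4 were 2.36 (SE 0.31) and 3.01 (SE 0.75), and of all these only that of Ccl3 passed. In introns the values were 0.76 for Ccl9, 2.04 for Ccl3 and 2.02 for Ccl4, and Ccl6 had 0 intron reads. Ccl5 had 1 exon count in KO and 0 in WT and was not tested, and neither were the 2 other rows within the cluster. On chromosome 9, the receptor cluster holds Ccr9, Xcr1, Ccr1 and Ccr2 among others. Ccr1 rose there. Ccr2 did not pass in exons, and Ccr9 and Xcr1 had too few exon counts to test. Among the neighbouring genes outside the family, Lztfl1 and Fyco1 were tested in exons and neither was called.

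**Figure D4:**
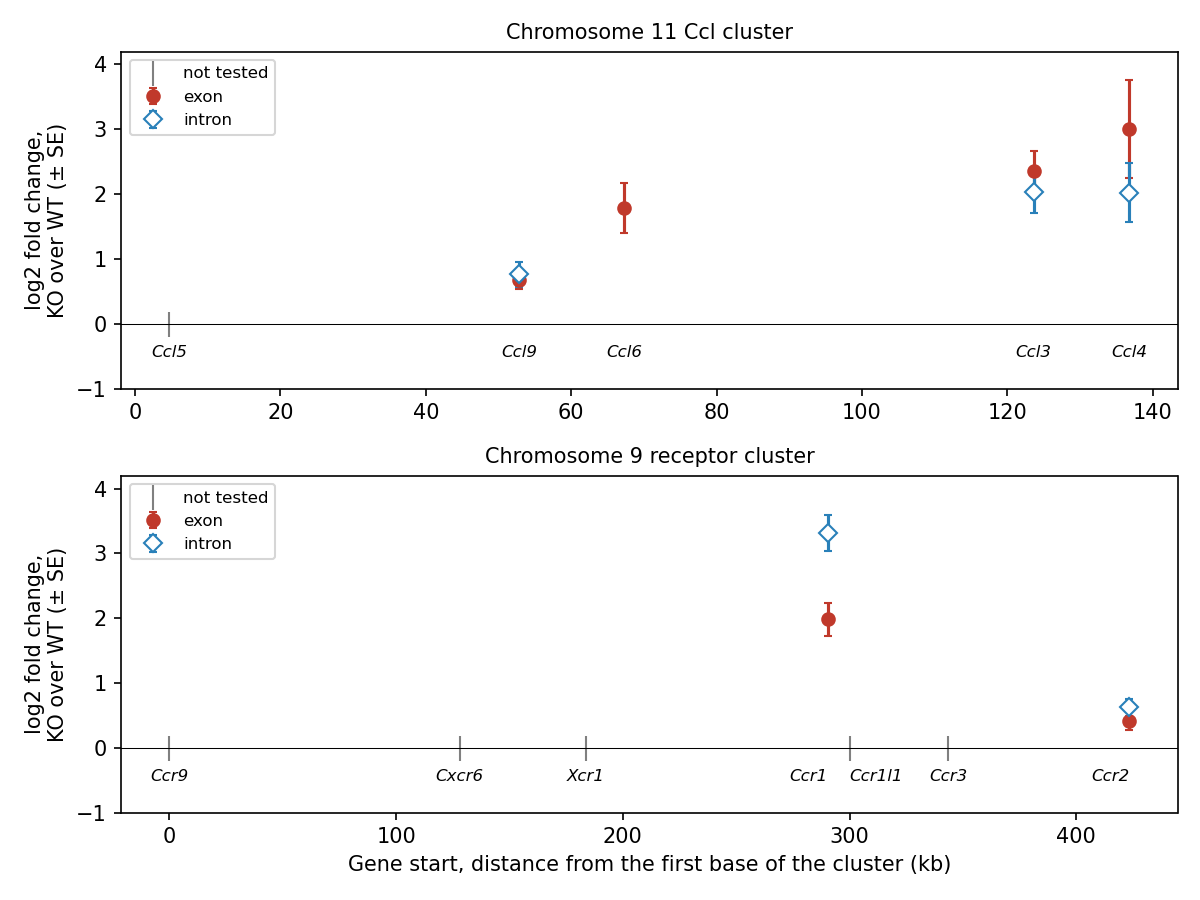
Log2 fold change of KO over WT, with SE bars, at the gene starts of the chromosome 11 ligand cluster (upper panel) and the chromosome 9 receptor cluster (lower panel), by distance from the first base of the cluster in kb. Filled circles are exon counts, open diamonds intron reads, and grey ticks rows that were not tested. Values run between 0.67 and 3.01 in exons on chromosome 11, and on chromosome 9 Ccr1 stands above Ccr2.

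By role, the receptor members together took 676.6 and 899 CPM in KO and 565.5 and 616.1 CPM in WT, and the ligand members 251.2 and 351.1 CPM in KO and 167.3 and 184.8 CPM in WT. Ccl9 made up most of the ligand total. Of the ligands of Ccr1 in the mouse, Ccl3, Ccl6 and Ccl9 were present and Ccl5 had 22 uniquely placed gene reads, mostly in introns. Cxcl12, the ligand of Cxcr4, had 0 exon counts in each KO library and 1 and 2 in WT, and Ccl2, a ligand of Ccr2, had 1 and 4 counts in KO and 0 and 1 in WT. At these depths 3 counts, the floor set here, equal 0.251 to 0.334 CPM. Single reads were seen below it, but levels there were not resolved.

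The remaining members had few exon counts. The scavenger receptor Ackr2 had 5 and 3 exon counts in KO and 1 and 2 in WT. Cxcl2, a ligand of Cxcr2, had 5 and 4 in KO and 0 and 2 in WT. Cxcr3 had 5 and 4 in KO and 8 and 12 in WT. Their counts were too low for the edgeR test. Their exact 95% counting intervals for the ratio, which leave out the spread between replicates, were 0.744 to 18.2, 1.08 to 49.8 and 0.210 to 1.20. Ccl27a, with 48.4% of its exon reads uniquely placed, had 15 and 6 counts in KO and 11 and 9 in WT, and its groups overlapped. Cxcr5, Ccr4, Xcr1, Ccl5, Ccl24, Ccl28, Cxcl16 and Cx3cl1 each had 7 or fewer exon counts in any library, and Ccr9 had 0 in all of them. Of the 38 rows under the read minimum, 28 ligands and 10 receptors, 22 had 0 uniquely placed reads and the highest had 8.

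Other genes of the pathway were read from lists. Of 8 tested relatives whose symbols fall outside the family stems, none passed in edgeR's test or DESeq2. In edgeR 2 had an unadjusted p under 0.05, where 20.8% of all genes tested did. Mif, a cytokine that can bind Cxcr4, was at 224.6 and 246.9 CPM in KO and 194.2 and 199.2 CPM in WT (log2 fold change 0.26, SE 0.065, edgeR adjusted p = 0.0837). The membrane protein genes Cmtm7, Cmtm6 and Cmtm3 had log2 fold changes of -0.18, 0.13 and 0.31. The list median was 0.063.

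Of 43 tested genes of chemokine receptor signalling, none passed in edgeR's test, 11 had an unadjusted p under 0.05, where 20.8% of all genes did, and 2 passed in DESeq2, which called 484 genes in all. Prex1, an exchange factor for Rac that G protein subunits activate, was at 203.6 and 252.2 CPM in KO and 154.4 and 165.7 CPM in WT. Its log2 fold change of 0.51 (SE 0.10) missed the threshold (edgeR adjusted p = 0.0519). Tiam1, another Rac exchange factor, had 0.36 (SE 0.076), Pik3r5, a subunit of PI3K gamma, 0.75 (SE 0.19), and Rgs18, which limits G protein signalling, -0.64 (SE 0.15), with edgeR adjusted p = 0.0590, 0.0915 and 0.0749. The list median was 0.051, and 19 genes had both KO libraries above both WT libraries and 7 both below, where 26.8% of all genes lay above and 27% below. With 1 library left out, 11 of these genes passed without KO replicate 1, where 1449 genes passed in all, 1 without KO replicate 2, and 0 without either WT replicate.

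Marker lists of cell types were read beside these results. Among 10 tested monocyte and macrophage markers Lyz2 and Vcan rose (log2 fold change 2.18, SE 0.22, and 2.61, SE 0.49) and none fell, with a list median of 0.91. In edgeR 2.8% of all 11738 genes tested were called. By DESeq2, which called 484 of the same genes, 6 of these markers passed, and 9 had an unadjusted p under 0.05 in edgeR. Over all genes tested 20.8% had such a p, a share that stands beside the counts for the lists below as well. The summed marker level was highest in KO replicate 2. Ly6c2 alone was highest in KO replicate 1, at 871.1 CPM against 820.3 CPM in KO replicate 2. Of 9 tested neutrophil markers none passed in edgeR or DESeq2, 2 had an unadjusted p under 0.05, and the summed level was 2380 and 960.2 CPM in KO and 1002 and 1498 CPM in WT. Of 7 tested eosinophil markers none passed in edgeR or DESeq2, 5 had an unadjusted p under 0.05, and the summed level was 54.2 and 19.7 CPM in KO and 409.9 and 95.5 CPM in WT. The B cell gene Ms4a1, the T cell genes Cd3e and Cd8a and the dendritic cell genes Cd209a and Clec9a had 0 counts in all libraries. Other genes of those lists were present. Thy1, of the T and NK cell list, rose, at 26.8 and 45.4 CPM in KO and 15.9 and 11.6 CPM in WT (log2 fold change 1.41, SE 0.27, edgeR adjusted p = 0.0478). Cd79b, of the B cell list, was at 8.67 and 5.35 CPM in KO and 15.4 and 15.5 CPM in WT, and passed in DESeq2 but not in edgeR (adjusted p = 0.0523). Of the dendritic cell list, Cd74 was at 10.2 and 22.7 CPM in KO and 5.40 and 9.13 CPM in WT (edgeR adjusted p = 0.167), and the groups overlapped for Itgax. Car2, of the erythroid list, fell, at 7.56 and 4.22 CPM in KO and 18.1 and 24.0 CPM in WT (log2 fold change -1.85, SE 0.27, edgeR adjusted p = 0.0268). Gata1 of that list missed the threshold (-3.29, SE 0.67, edgeR adjusted p = 0.0549). Of 5 tested mast cell and basophil markers none passed, and 3 had both KO libraries below both WT libraries, where 27% of all genes did. The part that a shift in cell types has in the chemokine results was not tested.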

How the data were processed

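RNA was extracted with Trizol and sequenced from directional libraries, per the labels' protocols, in 2 KO and 2 WT samples grouped by their titles. The build was mm10, per the submitters' processing notes. The sources used here name no aligner and no counting tool. The deposited table gives whole-number counts per gene: exon, intron, exon-junction and gene reads. The authors' main count equals the uniquely placed exon reads plus exon-junction reads that are not unique, in 100% of rows. The authors' deposited table also holds, per the file headers, an EDGE test, of which the signed fold (read as a score), the p-value and its corrected form were used. Exon length in bases, another deposited value, served for levels per kb.

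The members and lists were chosen with earlier results of these data known. Exon counts and intron reads were each filtered with filterByExpr, scaled by TMM (exon factors 0.995 to 1.00) and tested for KO over WT by quasi-likelihood (edgeR 4.0.16, R 4.3.3), and p-values were adjusted after Benjamini and Hochberg over all genes tested. Exon and intron change were compared by an interaction with the library as block, over features with a mean of at least 5 reads in each kind. Each SE given is the absolute log2 fold change divided by the square root of the F statistic of its test. Named members are those called in any test, the 12 of highest level per kb, and those beyond a log2 fold change of 1 with groups apart and a mean of at least 1 CPM; others are given by counts. Of each signalling list the genes passing, or else up to 4 with the smallest p, are named. Counts of 3 were the floor; counting intervals are exact (Clopper-Pearson), and they and the floor cover counting error only. Replicates differed by more than sampling noise (chi-square per degree of freedom 6.19 in KO, 4.21 in WT). The fits were tested on simulated counts, where the share of false calls came out above the nominal rate in each of the 3 fits. Some genes that enter the counts and list sums are not reported here by name or drawn. GENCODE vM21 held all 25 members by ID, and RefSeq promoter windows were found for 18. Alternatives were RLE scaling, DESeq2 1.42.0, no filter, a replicate block, unique or total exon reads, other intron scaling, a higher minimum, and each library left out.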

Additional observations from a re-analysis of the deposited data

How the results depend on the processing

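With 2 libraries a group, the number of calls depended on the library left out. Calls over all features moved with the setting too, so the member counts alone do not describe the members. In the main exon fit 2.8% of 11738 genes were called, and DESeq2 called 484 genes. Members called in exons numbered 2, and 5 with DESeq2, 8 with no filter on low counts (7 higher, 1 lower) and 0 to 6 with 1 library left out. In introns 4 were called, and 2 to 4 with 1 library left out. The median intron log2 fold change of the members tested, 0.46, was 0.14 with no filter and 0.18 to 0.68 with 1 library left out. In the interaction 0 were called, and 0 to 1 with 1 library left out. Over all features the calls in exons were 329, against 1677 with no filter and 14 to 1449 with 1 library left out. In introns they were 595, against 1565 with no filter and 287 to 1299 with 1 left out. In the interaction they were 138, and 46 to 217 with 1 left out. Such fits assume that the lone library varies like the other group, and the cause of these shifts was not tested.

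With the replicate number as a block, 5 members were called in exons and 875 genes in all, and 1430 features in introns. The numbers are not said to pair the samples, and the deviations of same-numbered libraries correlated at 0.0939 over 11738 genes.

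Signs turned only for members short of the threshold. With 1 library left out the exon log2 fold change ran from -0.62 to 0.49 for Cx3cr1, -0.34 to 1.46 for Cxcr2 and -0.57 to 0.84 for Ccl27a. The intron value ran from -0.0039 to 0.17 for Cxcr4 and -0.062 to 0.034 for Ccl25, and was 0.027 for Ccl25 scaled by gene count totals. The exon minus intron value ran from -0.075 to 0.75 for Cx3cr1 and -1.54 to 0.59 for Ccl27a. Of 248 values of named members under an alternative, 203 kept their sign and side of the threshold, 12 lost a call, 23 gained one and 10 changed sign. Low depth left 12 members untested in exons and 15 in introns.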
